A study of Mus musculus with 18 samples.

Results

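Expression of 10 genes that encode transcription factors of the AP-1 family was followed in 18 RNA-seq libraries of mouse bone marrow-derived macrophages (BMDMs). The genes were Fos, Fosb, Fosl1, Fosl2, Jun, Junb, Jund, Atf3, Batf and Maff. They were taken by name, as the rows of the count table whose Ensembl gene IDs carry these symbols, with no threshold on a measured value. They are 10 of the 50600 gene IDs in the table, and all 10 were among the 15663 genes that passed the filter on low counts and were tested.

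AP-1 is a set of dimers of basic leucine zipper (bZIP) proteins that bind short DNA elements in promoters and enhancers. Jun proteins can pair with one another or with a partner from the Fos, ATF or BATF groups, whereas Fos proteins need a Jun partner to bind DNA. In macrophages, Toll-like receptor 4 senses bacterial lipopolysaccharide (LPS) and feeds into MAP kinase cascades that raise AP-1 transcription and phosphorylate AP-1 proteins. Fos, Fosb, Jun and Junb are textbook immediate-early genes, whose transcripts appear within minutes of a stimulus and are short-lived. Atf3 is an inducible gene known to restrain cytokine transcription, and Maff encodes a small Maf protein without an activation domain.

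The study asked how defactinib, an inhibitor of the kinases PYK2 and FAK, changes LPS-driven transcription, and how much of that change needs IRF5, a transcription factor of inflammatory genes. BMDMs of WT and IRF5 KO (IRF5-/-) mice were grown for 8 days in GM-CSF, a growth factor of macrophages and dendritic cells. In each genotype, 3 libraries were unstimulated, 3 came from cells given DMSO for 1 h and then 100 ng/ml LPS for 2 h, and 3 from cells given 3.5 μM defactinib for 1 h and then the same LPS. The groups are called WT or IRF5 KO unstimulated, LPS DMSO and LPS defactinib. There was no group with defactinib and no LPS, so the defactinib effect was measured after LPS only. The labels assign DMSO to the unstimulated cells and the column names mark them as untreated, and this difference was not resolved here. The design text calls the 3 libraries of a group biological replicates, and the labels give neither the animals they came from nor the strain, age or sex of the mice or the way the IRF5 allele was made.

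Counted read pairs per library ranged from 39282181 to 61949143. The targeted gene, Irf5, was at 587, 606 and 650 CPM (TMM-scaled CPM, the share of a library's counts) in WT unstimulated and at 335, 397 and 364 CPM in IRF5 KO unstimulated libraries. Its log2 fold change, IRF5 KO over WT, was -0.75 before LPS (SE 0.16, adjusted p = 0.00492), -0.16 after LPS with DMSO (adjusted p = 0.428) and 0.42 after LPS with defactinib (adjusted p = 0.0545), where Irf5 was the higher in IRF5 KO. None reached the 2-fold threshold used here. A sum over all exons cannot reveal which of them were deleted, so these values do not check the genotype labels.

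IRF5 KO LPS DMSO replicate 3 stood apart from the other libraries of its group. Between replicates 1 and 2 of that group the counts differed by a chi-square of 2.33 per gene, where sampling noise alone gives 1, but replicate 3 was at 441 and 425 from them. Pairs in the other groups lay between 3.82 and 183. The noncoding nuclear RNA Gm26917 took 2.57%, 2.56% and 0.0125% of the counts in replicates 1, 2 and 3. With defactinib it took 2.18% to 4.15% in the WT group and 1.06% to 1.70% in the IRF5 KO group, and it took at most 0.0154% in the WT LPS DMSO and all unstimulated libraries. Mitochondrial genes took 0.793%, 0.797% and 0.514% in replicates 1, 2 and 3 of IRF5 KO LPS DMSO. Their share was 1.05% to 1.26% in WT LPS defactinib, above the 0.671% to 0.913% of WT LPS DMSO, and it was 0.835% to 0.926% in IRF5 KO LPS defactinib. The libraries with a high Gm26917 share were also those with high Fos, Fosb and Jun given below, and the part of either share in the results was not tested. Most results that rest on IRF5 KO LPS DMSO are therefore given with and without replicate 3.

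All 10 macrophage markers looked for, among them Adgre1, Csf1r, Cd68 and Lyz2, had a mean of at least 1 CPM in every group. Their sum was higher with defactinib, at 11352 to 15671 CPM against 10314 to 10867 CPM in WT LPS DMSO, and at 18796 to 19790 CPM against 10387 to 12813 CPM in IRF5 KO LPS DMSO, with no overlap in either genotype. It was 10385 to 10732 CPM in WT unstimulated and 10860 to 15405 CPM in IRF5 KO unstimulated libraries. By the test described below, defactinib called 1 of the 10 markers higher and 2 lower in WT (10.4% and 18.6% of all genes). In IRF5 KO it called none of them (0.919% of all genes). Of 10 markers of T, B and NK cells, 9 or 10 were under 1 CPM in each group, as were 6 or 7 of 7 fibroblast markers. The summed dendritic cell markers moved with the conditions, from 115 to 122 CPM in WT unstimulated to 384 to 498 CPM in WT LPS DMSO and 70.9 to 115 CPM in WT LPS defactinib, and in IRF5 KO from 136.0 to 199.7 CPM unstimulated to 277 to 307 CPM in LPS DMSO and 299.6 to 310.3 CPM in LPS defactinib libraries. Summed neutrophil markers (9 genes) were at 62.9 to 89.5 CPM in unstimulated libraries of either genotype and at 117 to 237 CPM in all LPS groups. Summed mast cell and basophil markers (9 genes) moved with the conditions in WT, from 10.7 to 11.6 CPM unstimulated to 45.3 to 58.0 CPM in LPS DMSO and 9.84 to 34.6 CPM in LPS defactinib libraries, and were at 49.1 to 101.3 CPM in IRF5 KO libraries. The part of these markers in the results below was not tested. In bulk RNA, fewer cells that express a gene and less of its RNA per cell cannot be told apart.

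Promoter sequences were read from RefSeq (build GRCm38.p6, the same assembly as the mm10 of the counts) for 9 of the 10 genes, as 11 windows from 250 bases before to 50 after a start site. Maff has 3 of these windows. The 250 bases before the start site are shown for Fos, Fosb and Jun, which rose together under defactinib in WT cells, and for Atf3 and Maff, which fell. Capitals mark matches to any of the motifs that were searched on both strands: the CRE (TGACGTCA), the TRE (TGACTCA), a TRE-like site (TGACATCA), the CRE core (TGACG, which also lies inside the CRE), the TATA box (TATAAA), the core of the interferon-stimulated response element (GAAA, any 2 bases, GAAA), the CArG box (CC, 6 bases of A or T, GG) and the kappaB site.
Fos, chr12:85473640-85473889, plus strand: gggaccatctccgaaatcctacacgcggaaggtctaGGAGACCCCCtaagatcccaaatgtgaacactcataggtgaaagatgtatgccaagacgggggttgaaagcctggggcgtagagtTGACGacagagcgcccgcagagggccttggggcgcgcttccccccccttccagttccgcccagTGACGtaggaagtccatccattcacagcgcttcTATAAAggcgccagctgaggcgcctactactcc
Fosb, chr7:19310046-19310295, minus strand: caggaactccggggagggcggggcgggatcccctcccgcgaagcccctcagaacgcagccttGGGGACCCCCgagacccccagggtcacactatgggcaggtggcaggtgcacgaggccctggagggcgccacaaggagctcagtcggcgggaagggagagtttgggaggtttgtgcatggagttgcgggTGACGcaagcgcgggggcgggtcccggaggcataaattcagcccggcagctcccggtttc
Jun, chr4:95052223-95052472, minus strand: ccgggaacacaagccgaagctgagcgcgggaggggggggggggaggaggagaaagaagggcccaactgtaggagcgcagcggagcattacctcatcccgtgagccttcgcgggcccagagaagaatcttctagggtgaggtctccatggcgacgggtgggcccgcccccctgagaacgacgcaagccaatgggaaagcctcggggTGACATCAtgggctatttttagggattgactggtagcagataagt
Atf3, chr1:191183334-191183583, minus strand: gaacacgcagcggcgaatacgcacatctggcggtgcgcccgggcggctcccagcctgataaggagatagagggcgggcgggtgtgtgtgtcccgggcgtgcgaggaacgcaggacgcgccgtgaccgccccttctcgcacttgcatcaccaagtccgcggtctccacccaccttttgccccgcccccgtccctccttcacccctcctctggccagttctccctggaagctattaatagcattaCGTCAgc
Maff, chr15:79347270-79347519, plus strand: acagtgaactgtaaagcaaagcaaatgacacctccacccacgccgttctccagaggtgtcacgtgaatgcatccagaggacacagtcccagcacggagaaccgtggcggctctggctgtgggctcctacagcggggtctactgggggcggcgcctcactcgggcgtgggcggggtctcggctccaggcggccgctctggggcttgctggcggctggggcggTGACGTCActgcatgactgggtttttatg

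In the Fos window the CRE core stood at positions -129 to -125 and again at -66 to -62, counted from the start site, with a TATA box at -33 to -28. In the Fosb window it stood at -60 to -56. The Jun window held the TRE-like site at -45 to -38, and the window of the third Maff start site held the same letters at the same place. The only full CRE was at -29 to -22 of the second Maff start site, the window printed above, while the Atf3 window had a CRE core on the strand opposite to the gene at -7 to -3. In all, 7 of the 11 windows held a CRE core (Fos, Fosb, Junb, Atf3, Batf and 2 of the Maff windows), against 20.8% of all 32851 windows of 300 bases in the table. The TRE-like site was found in 2 of the 11 (3.62% of all windows), the full CRE in 1 (1.79%) and the kappaB site in 4, those of Fos, Fosb, Fosl2 and the third Maff start site (4.51%). The interferon-stimulated core was found in the Fosl2 window alone (3.44% of all windows) and the TATA box in those of Fos and Junb (13.6%). In the Junb window the TATA box stood at 1 to 6, at a start site 30 bases upstream of the counted gene. The 3 Maff windows belong to 1 gene and are not independent. The TRE (5.2% of windows) and the CArG box (1.63%) were not found in these windows, and Jund held none of the motifs. Sites more than 250 bases before a start site were outside the search, so their absence from these genes was not shown. The Jund window lies at a start site 1210 bases upstream of the counted gene, and the Atf3 window at one 34706 bases inside it. For Fos and Jun the start site is the edge of the counted gene, and for Fosb and the second Maff start site it is within 21 bases of it. These matches are letters in a window and not measured binding. Fosl1 was not among the matched genes.

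**Figure D1:**
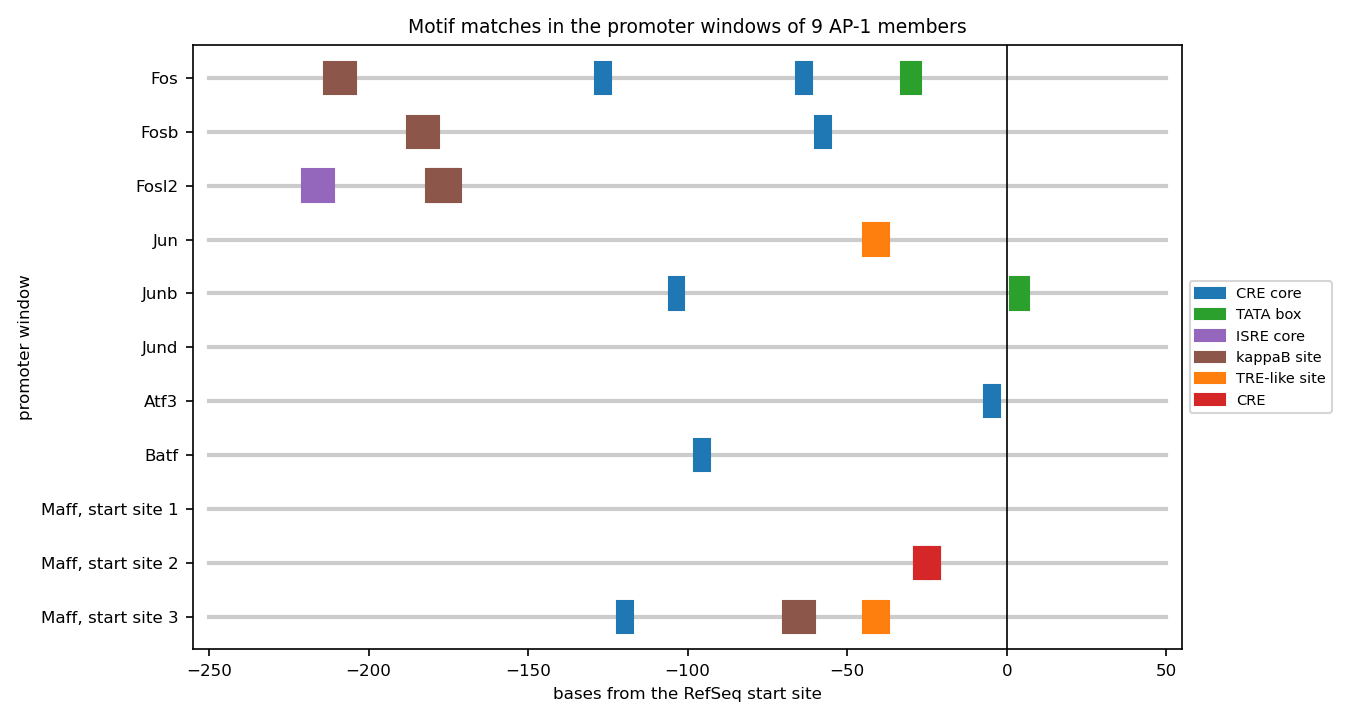
Positions of motif matches in the 11 promoter windows of 9 AP-1 genes, in bases from the RefSeq start site (x axis), 1 line per window. Fos holds its CRE cores at -129 and -66, Jun its TRE-like site at -45 and the second Maff start site a full CRE at -29.

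The family spanned a wide range of levels. Per kilobase of counted exon, Atf3, Jund and Junb were the most abundant, with medians over the 18 libraries of 192, 128 and 115 CPM per kb. Maff (35.1 CPM per kb), Jun (20.2 CPM per kb), Batf (12.95 CPM per kb) and Fosl2 (11.9 CPM per kb) followed. Fos had a median of 3.18 CPM per kb and Fosl1 of 1.04 CPM per kb. Fosb was the lowest at 0.129 CPM per kb, with 14 to 906 counted pairs per library. The span over libraries was widest for Fosb, from 0.0374 to 2.62 CPM per kb, and for Fosl1, from 0.105 to 5.06 CPM per kb. Levels below are in CPM and are compared within a gene only.

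**Figure D2:**
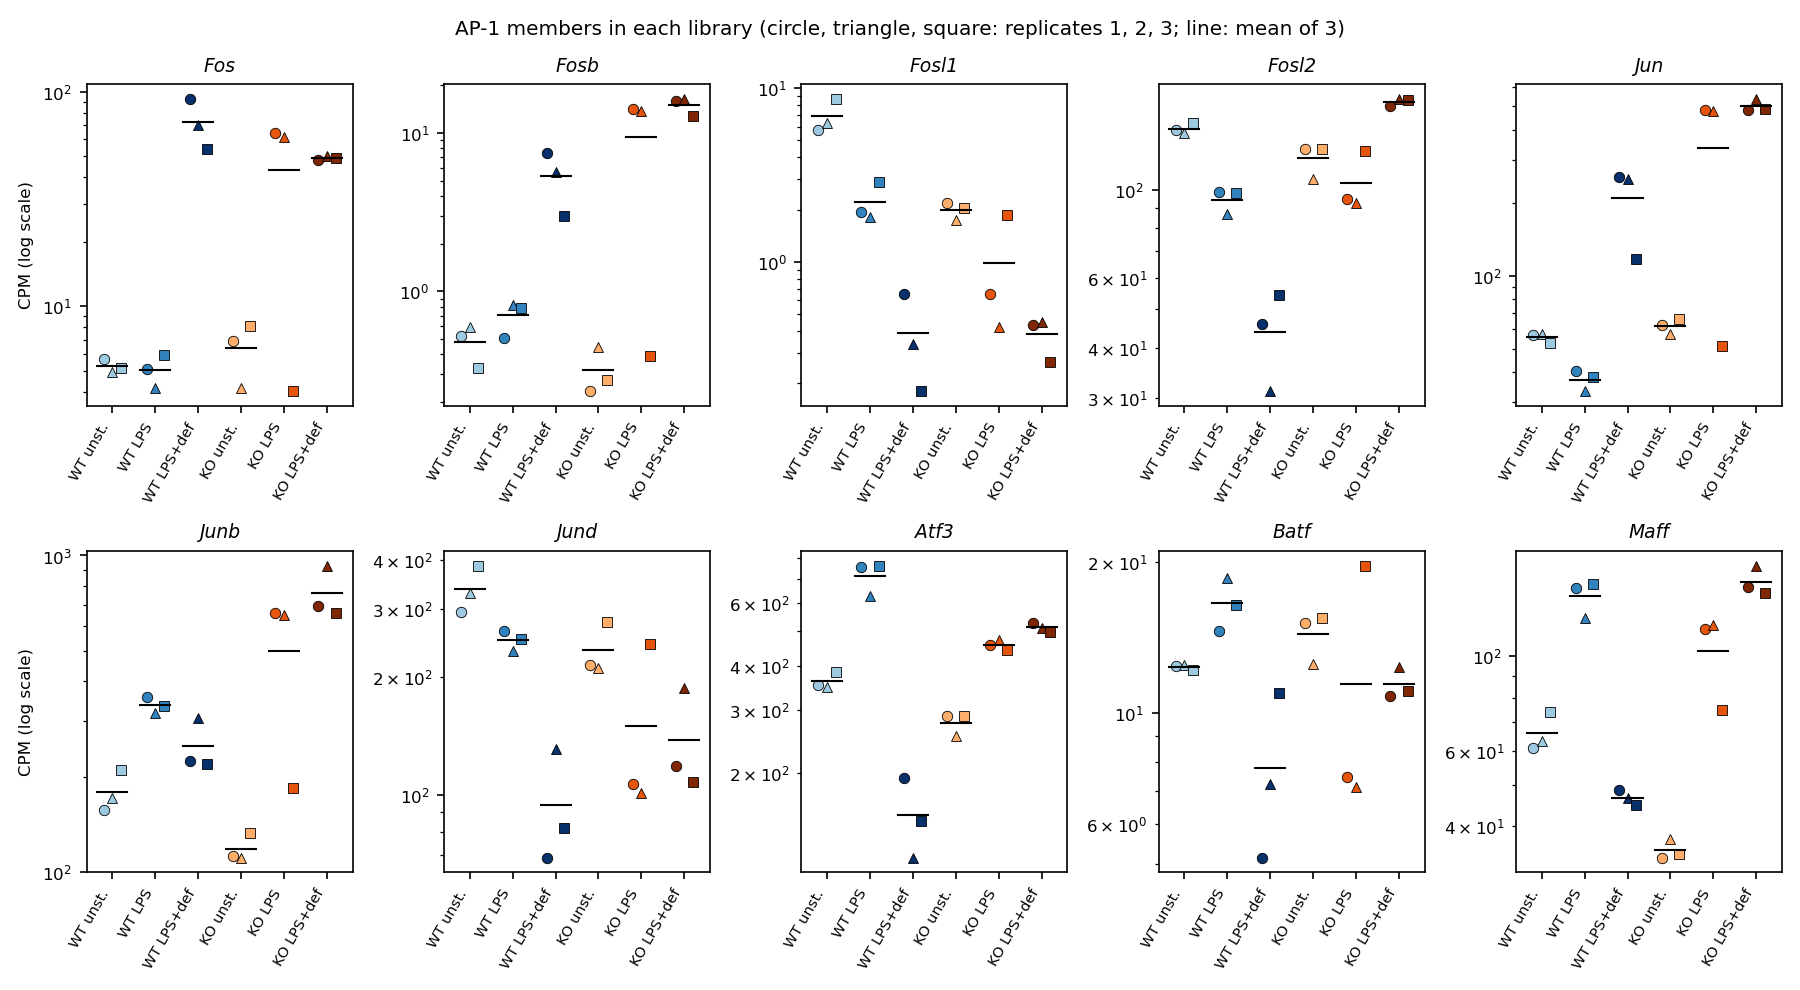
CPM of each AP-1 gene (log axis) in every library, by group (def: defactinib, unst.: unstimulated), with replicates 1, 2 and 3 as circles, triangles and squares and the group mean as a line. In IRF5 KO LPS DMSO, replicate 3 of Fos (4.01 CPM), Fosb (0.391 CPM) and Jun (51.0 CPM) lies far below replicates 1 and 2.

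A gene was called where its adjusted p was below 0.05 and its fold change above 2. LPS called 2 of the 10 genes in WT cells (1 higher, Maff, and 1 lower, Fosl1), where 21.3% of all tested genes were called, 11.6% higher and 9.71% lower. In IRF5 KO cells it called 5, all higher (Fos, Fosb, Jun, Junb and Maff), against 13.3% of all genes in either direction, 7.07% higher and 6.28% lower. The number was 7 when IRF5 KO LPS DMSO replicate 3 was left out, with Fosl1 and Jund added as lower. In that fit 26.2% of all genes were called, 16.6% lower. Defactinib called 9 of the 10 genes in LPS-treated WT cells, where 29.1% of all genes were called. Of these, 3 were higher (Fos, Fosb and Jun, 10.4% of all genes) and 6 lower (Fosl1, Fosl2, Jund, Atf3, Batf and Maff, 18.6% of all genes). In LPS-treated IRF5 KO cells defactinib called none of the 10 by edgeR's test (0.919% of all genes called, 0.16% higher and 0.76% lower), with 3 of them at an unadjusted p under 0.05 and 1 (Fosl1) called by DESeq2. Over all genes, DESeq2 called 523 of 14281 in this comparison.

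Against unstimulated cells, LPS with defactinib called 7 of the 10 genes in WT (24.9% of all genes, 9.1% higher and 15.8% lower) and 6 in IRF5 KO cells (24% of all genes, 7.85% higher and 16.2% lower). In WT, 3 were higher (Fos, Fosb and Jun) and 4 lower (Fosl1, Fosl2, Jund and Atf3). In IRF5 KO, 5 were higher (Fos, Fosb, Jun, Junb and Maff) and Fosl1 was lower. Between genotypes, IRF5 KO over WT, 1 of the 10 was called before LPS (Fosl1, lower, with 7.31% of all genes called, 3.51% higher and 3.8% lower) and 4 after LPS with DMSO (25.8% of all genes, 11.8% higher and 14% lower). The 4 were Fos, Fosb and Jun, higher, and Fosl1, lower, and without IRF5 KO LPS DMSO replicate 3 there were 6, with Jund and Batf added as lower, while 34.5% of all genes were called, 20.7% lower. Under LPS with defactinib, 4 were called, all higher in IRF5 KO (Fosl2, Junb, Atf3 and Maff), against 17.3% of all genes, 8.87% higher and 8.45% lower. Jun and Fosb were added, both higher, without IRF5 KO LPS DMSO replicate 3 (20.3% of all genes called) and when only these 2 groups were fitted (18.3% of all genes called), and Jun was added with DESeq2. Comparisons that use the same libraries are not independent of each other.

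**Figure D3:**
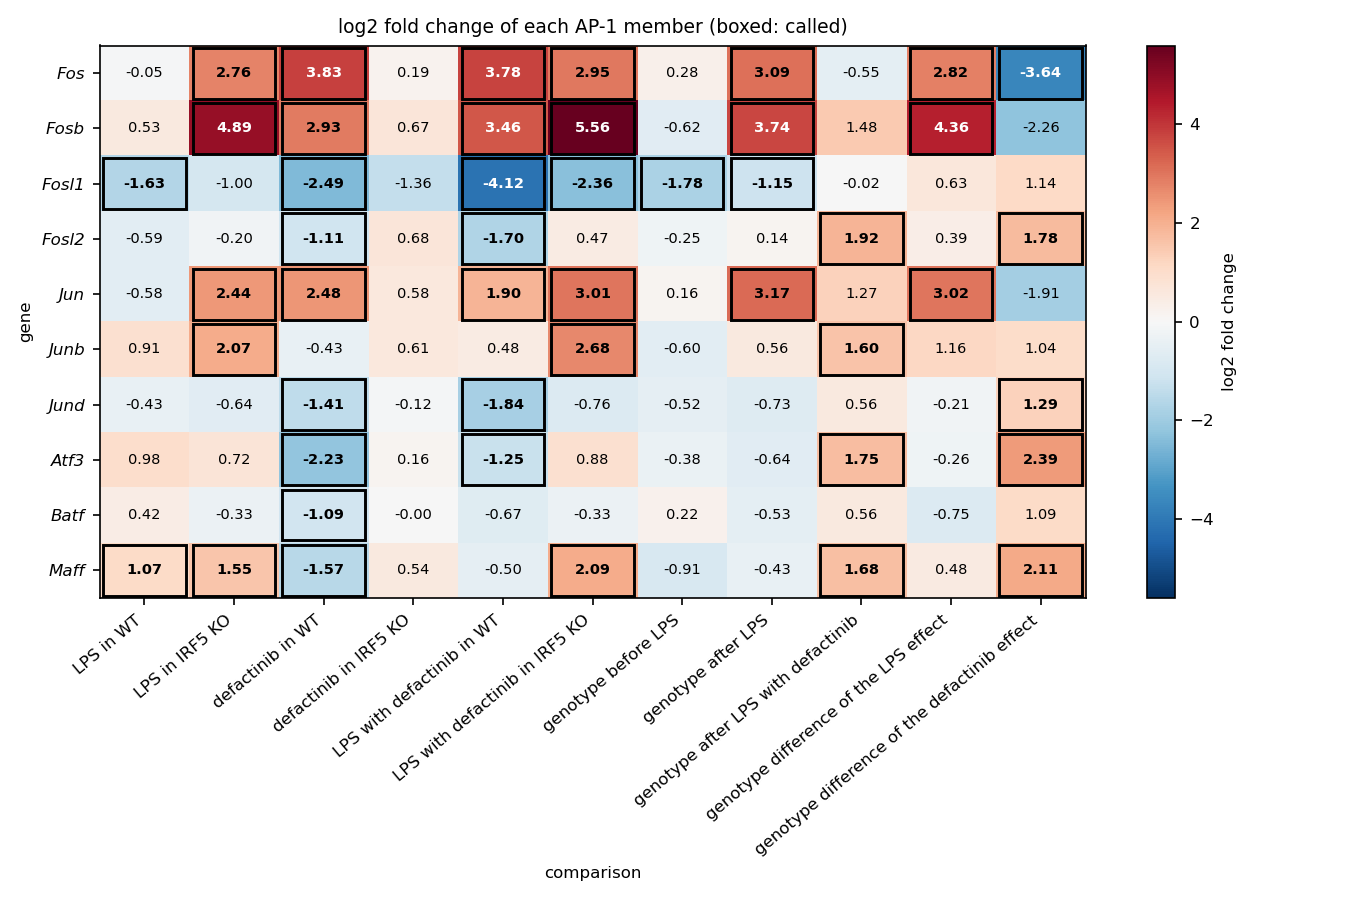
Fitted log2 fold change of each AP-1 gene (rows) in the 11 comparisons (columns), with the called values boxed. Genotype columns are IRF5 KO over WT, the last 2 columns are differences between the effects in IRF5 KO and WT, and the column for defactinib in IRF5 KO holds no boxed value while that for defactinib in WT holds 9.

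Fos (ENSMUSG00000021250, mm10 chromosome 12, 85473890 to 85477273), the founding partner of Jun, was low in WT cells until defactinib was added. It was at 5.65, 4.94 and 5.15 CPM in WT unstimulated libraries. It was at 5.10, 4.17 and 5.92 CPM in WT LPS DMSO libraries. In WT LPS defactinib libraries it reached 92.6, 69.9 and 53.9 CPM. The unstimulated and LPS DMSO libraries of WT overlapped, and all 3 with defactinib lay far above them. The rise with defactinib was 3.83 on the log2 scale (SE 0.66, adjusted p = 0.000209), whereas the LPS effect at 2 h was -0.05 (SE 0.61, adjusted p = 0.958).

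Fos in IRF5 KO cells was at 6.86, 4.16 and 8.08 CPM unstimulated. After LPS with DMSO it was at 64.3, 61.6 and 4.01 CPM, so that replicates 1 and 2 were at the level of the defactinib libraries and replicate 3 at that of unstimulated cells. With defactinib it was at 48.4, 50.3 and 49.3 CPM. LPS raised Fos by 2.76 on the log2 scale (SE 0.63, adjusted p = 0.00562), and by 3.3 without replicate 3 (adjusted p = 6.53e-09). When only these 2 groups were fitted, Fos, Fosb, Jun and Junb all lost this call (adjusted p = 0.118, 0.102, 0.110 and 0.0885). Defactinib changed it by 0.19 (SE 0.58, 95% interval -1.06 to 1.43, adjusted p = 0.878), and by -0.35 without replicate 3 (adjusted p = 0.349). After LPS with DMSO, Fos was higher in IRF5 KO than in WT by 3.09 (SE 0.64, adjusted p = 0.00112), or 3.64 without replicate 3. With LPS and defactinib all 3 IRF5 KO libraries were below the WT libraries, at -0.55 (SE 0.58, adjusted p = 0.493).

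Fosb (ENSMUSG00000003545, chromosome 7, 19302696 to 19310051), a close relative of Fos, was also highest under defactinib among the WT groups. It was at 0.524, 0.592 and 0.330 CPM in WT unstimulated and at 0.510, 0.819 and 0.788 CPM in WT LPS DMSO libraries, which overlapped. In WT LPS defactinib libraries it was at 7.42, 5.65 and 3.01 CPM, all above both other groups. Defactinib raised it by 2.93 (SE 0.80, adjusted p = 0.00631).

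Fosb in IRF5 KO libraries was at 0.234, 0.443 and 0.275 CPM unstimulated, at 14.1, 13.8 and 0.391 CPM after LPS with DMSO, and at 15.8, 16.3 and 12.7 CPM with defactinib. Replicate 3 of the DMSO group again lay with the unstimulated libraries. The LPS effect was 4.89 (SE 0.87, adjusted p = 0.00182), or 5.46 without replicate 3. The defactinib effect was 0.67 (SE 0.70, 95% interval -0.82 to 2.15, adjusted p = 0.599), and 0.10 without replicate 3. Under LPS with defactinib the 3 IRF5 KO libraries were all above the WT libraries, by 1.48 (SE 0.71, adjusted p = 0.119), a difference that was called without IRF5 KO LPS DMSO replicate 3 (1.48, adjusted p = 9.86e-05), a library outside this contrast that enters the shared estimate of the spread.

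Jun (ENSMUSG00000052684, chromosome 4, 95049034 to 95052222), the central dimer partner, was at 57.1, 57.2 and 52.8 CPM in WT unstimulated libraries. After LPS with DMSO it was at 40.3, 33.3 and 38.1 CPM, all below the unstimulated libraries, a log2 fold change of -0.58 that did not pass the test (SE 0.51, adjusted p = 0.401). With defactinib it was at 256, 251 and 118 CPM, with replicate 3 the lowest of the 3 and still above every other WT library. The rise with defactinib was 2.48 (SE 0.54, adjusted p = 0.00125).

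Jun in IRF5 KO libraries was at 62.6, 57.7 and 66.0 CPM unstimulated, at 482, 477 and 51.0 CPM after LPS with DMSO, and at 482, 535 and 488 CPM with defactinib. Replicate 3 of the DMSO group was below all unstimulated IRF5 KO libraries. LPS raised Jun by 2.44 (SE 0.54, adjusted p = 0.00483), or 2.95 without replicate 3. The defactinib effect was 0.58 (SE 0.51, 95% interval -0.51 to 1.66, adjusted p = 0.527), and 0.07 without replicate 3. Jun was higher in IRF5 KO than in WT after LPS with DMSO by 3.17 (SE 0.55, adjusted p = 0.000291), or 3.69 without replicate 3, with all 3 libraries above those of WT. Under LPS with defactinib the difference was 1.27 (SE 0.52, adjusted p = 0.0674), with all 3 IRF5 KO libraries higher, and it was called without IRF5 KO LPS DMSO replicate 3 (1.27, adjusted p = 7.89e-05).

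Junb (ENSMUSG00000052837, chromosome 8, 84974484 to 84978718), a Jun protein that often opposes Jun, differed from the preceding genes in WT cells. It was at 157, 171 and 209.9 CPM unstimulated, at 357, 319 and 335 CPM after LPS with DMSO, and at 224, 306 and 219.8 CPM with defactinib. All LPS DMSO libraries were above the unstimulated ones, a log2 fold change of 0.91 (SE 0.33, adjusted p = 0.0361) that fell short of the 2-fold threshold and passed it without WT unstimulated replicate 3 (1.03). The defactinib libraries were all below the LPS DMSO libraries, by -0.43 (SE 0.33, adjusted p = 0.269), so Junb was the member not called for defactinib in WT.

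Junb in IRF5 KO cells was at 112, 111 and 133 CPM unstimulated, at 660.0, 649 and 184 CPM after LPS with DMSO, and at 691, 929 and 659 CPM with defactinib. Even the low replicate 3 was above the unstimulated libraries. LPS raised Junb by 2.07 (SE 0.34, adjusted p = 0.00103), or 2.46 without replicate 3. Defactinib changed it by 0.61 (SE 0.33, 95% interval -0.08 to 1.30, adjusted p = 0.272), and by 0.21 without replicate 3 (adjusted p = 0.460). With both LPS and defactinib Junb was higher in IRF5 KO than in WT by 1.6 (SE 0.33, adjusted p = 0.00149).

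Atf3 (ENSMUSG00000026628, chromosome 1, 191170296 to 191218039) went the other way under defactinib. It was at 352, 349 and 384 CPM in WT unstimulated, at 755, 626 and 762 CPM in WT LPS DMSO and at 195, 116 and 147 CPM in WT LPS defactinib libraries. The 3 WT groups did not overlap, and the defactinib libraries lay below the unstimulated ones. The LPS effect was 0.98 (SE 0.14, adjusted p = 3.98e-05), just under the 2-fold threshold, and it passed without WT unstimulated replicate 3 or WT LPS DMSO replicate 2 (1.02 to 1.06). With DESeq2 or its size factors it was 1.02 and was called, which made 3 of the 10 genes called for LPS in WT. Over all genes, DESeq2 called 3296 of 15496 in this comparison, so 3 of 10 is not read as a result about the family. Defactinib lowered Atf3 by -2.23 (SE 0.15, adjusted p = 1.57e-08).

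For IRF5 KO, Atf3 was at 289, 254 and 289.8 CPM unstimulated, at 457, 473 and 441 CPM after LPS with DMSO and at 526, 511 and 498 CPM with defactinib. Here replicate 3 of the DMSO group was close to the others. The LPS effect was 0.72 (SE 0.14, adjusted p = 0.00241), under the threshold, and 0.74 without replicate 3. Defactinib changed Atf3 by 0.16 (SE 0.14, 95% interval -0.13 to 0.46, adjusted p = 0.510), and by 0.14 without replicate 3. With both LPS and defactinib Atf3 was higher in IRF5 KO than in WT by 1.75 (SE 0.14, adjusted p = 1.76e-07).

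Maff (ENSMUSG00000042622, chromosome 15, 79347541 to 79359072), whose protein forms dimers that block or share Maf sites, was the only member that LPS raised past the threshold in both genotypes. It was at 60.9, 63.1 and 74.0 CPM in WT unstimulated, at 145, 123 and 148 CPM in WT LPS DMSO and at 48.4, 46.6 and 44.8 CPM in WT LPS defactinib libraries. These 3 groups did not overlap. LPS raised it by 1.07 (SE 0.14, adjusted p = 2.31e-05) and defactinib lowered it by -1.57 (SE 0.15, adjusted p = 5.36e-07). Scaling by library size alone put the LPS effect at 0.69, below the threshold.

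In IRF5 KO libraries Maff was at 33.7, 37.3 and 34.4 CPM unstimulated, at 116, 118 and 74.8 CPM after LPS with DMSO and at 145, 163 and 141 CPM with defactinib. The unstimulated IRF5 KO libraries were all below the unstimulated WT libraries, by -0.91 (SE 0.14, adjusted p = 0.000385), under the threshold. LPS raised Maff by 1.55 (SE 0.15, adjusted p = 6.31e-06), or 1.73 without replicate 3. The defactinib effect was 0.54 (SE 0.14, adjusted p = 0.0499), with all 3 libraries higher and a fold change under 2, and 0.36 without replicate 3. After defactinib and LPS Maff was higher in IRF5 KO than in WT by 1.68 (SE 0.15, adjusted p = 3.29e-07).

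Fosl1 (ENSMUSG00000024912, chromosome 19, 5447703 to 5455945), which encodes the Fos-related protein FRA-1, was the only member called between the genotypes before LPS (Maff also passed the test, at a fold change under 2). It was at 5.73, 6.26 and 8.64 CPM in WT unstimulated and at 2.18, 1.75 and 2.05 CPM in IRF5 KO unstimulated libraries. The IRF5 KO libraries were all lower, by -1.78 (SE 0.43, adjusted p = 0.00937). In WT it was at 1.95, 1.82 and 2.90 CPM after LPS with DMSO and at 0.651, 0.337 and 0.180 CPM with defactinib. LPS lowered it by -1.63 (SE 0.43, adjusted p = 0.00609) and defactinib by a further -2.49 (SE 0.49, adjusted p = 0.000505).

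For IRF5 KO, Fosl1 was at 0.654, 0.424 and 1.86 CPM after LPS with DMSO and at 0.436, 0.448 and 0.266 CPM with defactinib. Replicate 3 of the DMSO group lay among the unstimulated libraries. The LPS effect was -1.0 (SE 0.44, adjusted p = 0.0850), and -1.88 without replicate 3 (adjusted p = 0.000361). The defactinib effect was -1.36 (SE 0.49, 95% interval -2.39 to -0.32, adjusted p = 0.115), and -0.47 without replicate 3. When replicate 2 of the DMSO group was left out instead, it was -1.72 and was called (adjusted p = 0.0307). After LPS with DMSO, Fosl1 was lower in IRF5 KO than in WT by -1.15 (SE 0.45, adjusted p = 0.0404). That call was lost when any 1 of 10 libraries was left out (log2 fold changes of -1.26 to -0.79), and was kept without IRF5 KO LPS DMSO replicate 3 (-2.03). Other settings that lost it were library size alone (-0.85), no filter (-1.12) and a fit of only these groups (-1.12), the last of which also put Fosb at an adjusted p of 0.0504.

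Fosl2 (ENSMUSG00000029135, chromosome 5, 32135801 to 32157842), which encodes FRA-2, was highest in IRF5 KO cells under defactinib and lowest in WT cells under defactinib. In WT it was at 141, 139 and 147 CPM unstimulated, at 98.6, 86.9 and 97.9 CPM after LPS with DMSO and at 45.9, 31.1 and 54.4 CPM with defactinib. The 3 WT groups did not overlap. LPS changed it by -0.59 (SE 0.16, adjusted p = 0.00674), under the threshold, and defactinib lowered it by -1.11 (SE 0.16, adjusted p = 3.78e-05). Without WT LPS defactinib replicate 2 the defactinib effect was -0.91, and with library size alone it was also -0.91, both under the threshold.

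In IRF5 KO libraries Fosl2 was at 126, 106 and 127 CPM unstimulated, at 94.9, 92.5 and 125 CPM after LPS with DMSO and at 162, 169 and 168 CPM with defactinib. All 3 defactinib libraries were above the others, with a defactinib effect of 0.68 (SE 0.16, adjusted p = 0.0357), or 0.83 without replicate 3 of the DMSO group, and a fold change under 2. Under LPS with defactinib it was higher in IRF5 KO than in WT by 1.92 (SE 0.16, adjusted p = 2.66e-07).

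Jund (ENSMUSG00000071076, chromosome 8, 70698949 to 70700616) encodes the Jun protein that most resting cells hold. In WT it was at 294, 329 and 387 CPM unstimulated, at 263, 234 and 251 CPM after LPS with DMSO and at 68.8, 131 and 82.1 CPM with defactinib. The 3 WT groups did not overlap. Defactinib lowered Jund by -1.41 (SE 0.32, adjusted p = 0.00164), while the LPS effect was -0.43 (SE 0.31, adjusted p = 0.297).

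In IRF5 KO libraries Jund was at 215, 211 and 277 CPM unstimulated, at 106, 101 and 243 CPM after LPS with DMSO and at 118, 188 and 108 CPM with defactinib. Replicate 3 of the DMSO group lay among the unstimulated libraries, and the other two just below those with defactinib. The LPS effect was -0.64 (SE 0.31, adjusted p = 0.114), and -1.18 without replicate 3 (adjusted p = 0.00149). Defactinib changed it by -0.12 (SE 0.31, 95% interval -0.79 to 0.55, adjusted p = 0.853), and by 0.42 without replicate 3. LPS with defactinib against unstimulated gave -0.76 (SE 0.31, adjusted p = 0.0516), called with library size alone (-1.13) or without IRF5 KO LPS defactinib replicate 2 (-1.05).

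Batf (ENSMUSG00000034266, chromosome 12, 85686669 to 85709087) encodes a short bZIP protein that pairs with Jun proteins and can bind beside IRF family members. In WT it was at 12.4, 12.5 and 12.2 CPM unstimulated, at 14.6, 18.6 and 16.4 CPM after LPS with DMSO and at 5.14, 7.22 and 10.9 CPM with defactinib. Defactinib lowered it by -1.09 (SE 0.32, adjusted p = 0.00935), with no overlap between the groups. The fold change fell under the threshold with library size alone (-0.90) and when WT LPS DMSO replicate 2 was left out or, with defactinib, WT replicate 1 (-0.97 to -0.83).

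For IRF5 KO, Batf was at 15.1, 12.5 and 15.5 CPM unstimulated, at 7.44, 7.10 and 19.7 CPM after LPS with DMSO and at 10.8, 12.3 and 11.1 CPM with defactinib. Replicate 3 of the DMSO group was the highest of all 18 libraries. The defactinib effect was -0.004 (SE 0.32, 95% interval -0.68 to 0.67, adjusted p = 0.997), and 0.65 without replicate 3 (adjusted p = 0.0700). After LPS with DMSO, Batf was lower in IRF5 KO than in WT by -0.53 (SE 0.32, adjusted p = 0.172), and by -1.18 without replicate 3 (adjusted p = 0.000121).

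**Figure D4:**
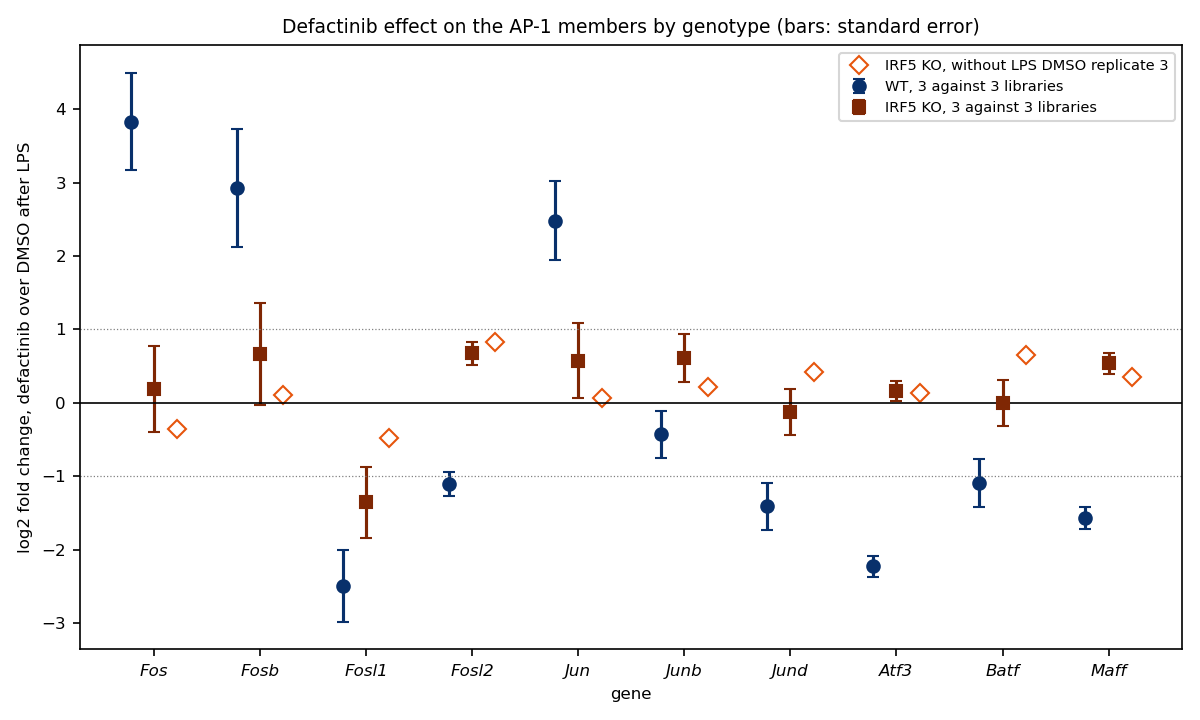
Log2 fold change of defactinib over DMSO after LPS for each AP-1 gene in WT (circles) and IRF5 KO (squares), with standard errors, and in IRF5 KO without LPS DMSO replicate 3 (open diamonds, no bars drawn). WT values run from -2.49 (Fosl1) to 3.83 (Fos), those of IRF5 KO from -1.36 (Fosl1) to 0.68 (Fosl2).

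The difference between the genotypes in the defactinib effect, IRF5 KO minus WT, was tested directly. It was called for 5 of the 10 genes, against 22.8% of all genes (12.3% higher and 10.5% lower), and for 9 of the 10 without IRF5 KO LPS DMSO replicate 3, where 31.6% of all genes were called. Fos differed by -3.64 (SE 0.86, adjusted p = 0.00404), and Atf3 by 2.39 (SE 0.20, adjusted p = 4.02e-07). Maff differed by 2.11 (SE 0.20, adjusted p = 1.7e-06), Fosl2 by 1.78 (SE 0.23, adjusted p = 2.3e-05) and Jund by 1.29 (SE 0.44, adjusted p = 0.0330). In each of these 5 genes the WT effect was the larger one in size. Jun (-1.91, SE 0.73, adjusted p = 0.0519) and Fosb (-2.26, SE 1.05, adjusted p = 0.106) did not pass edgeR's test with all libraries and did without replicate 3 (-2.41, adjusted p = 5.39e-06, and -2.83, adjusted p = 1.52e-05). Fosl1 (1.14, adjusted p = 0.211) and Batf (1.09, adjusted p = 0.0709) likewise passed in its absence (2.01 and 1.74). Jun and Batf also passed when replicate 3 of WT LPS defactinib was left out (-2.22 and 1.38). With all libraries, Jun passed with DESeq2 (adjusted p = 0.0169), with library size alone (0.0188) and with the filter of 5 CPM (0.0348), and Batf with DESeq2 (0.0422) and with the replicate block (0.0284), so that DESeq2 called 7 of the 10 genes. Over all genes, DESeq2 called 3729 of 15496 in this comparison. Junb differed by 1.04 (SE 0.46, adjusted p = 0.0897), and by 0.65 without replicate 3 (adjusted p = 0.0190), under the threshold. The 5 genes called with all libraries ran from -4.18 (Fos) to 2.37 (Atf3) without it.

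The difference in the LPS effect, IRF5 KO minus WT, was called for 3 of the 10 genes, against 9.83% of all genes (3.49% higher and 6.33% lower). These were Fosb (4.36, SE 1.20, adjusted p = 0.0231), Jun (3.02, SE 0.74, adjusted p = 0.0130) and Fos (2.82, SE 0.87, adjusted p = 0.0372). Without IRF5 KO LPS DMSO replicate 3, 5 genes were called, with Junb (1.56, adjusted p = 1.96e-05) and Batf (-1.40, adjusted p = 0.000562) added, and 23.6% of all genes were called. With all libraries and library size alone Junb was also called (1.26, adjusted p = 0.0477). In the fit without replicate 3, Fosb, Jun and Fos differed by 4.94, 3.53 and 3.36. The call of Fos was lost when any 1 of 11 other libraries was left out (2.43 to 3.02, adjusted p up to 0.0988), and that of Fosb with any 1 of 6 (3.96 to 4.27, adjusted p up to 0.0583), whereas Jun stayed called with each library left out. The intervals of Atf3 (-0.26, 95% interval -0.68 to 0.16), Fosl2 (0.39, 95% interval -0.09 to 0.87) and Maff (0.48, 95% interval 0.06 to 0.91, adjusted p = 0.108) held no 2-fold difference between the genotypes in their LPS effects, and that of Maff did not hold 0. Without replicate 3 Maff differed by 0.67 (adjusted p = 0.000672).

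Other bZIP genes, partners or relatives of AP-1, were read from a list of 18, all tested. Counts of called genes in this and the following lists are read against the shares of all genes. These were 10.4% higher and 18.6% lower for defactinib in WT, 11.6% and 9.71% for LPS in WT, 7.07% and 6.28% for LPS in IRF5 KO, and 0.919% in both directions for defactinib in IRF5 KO, a share at which 0 of a short list says little. In WT, defactinib raised 2, among them Batf3 (1.19, SE 0.20), and lowered 6, the lowest being Jdp2 (-3.39, SE 0.49), an AP-1 repressor, and Maf (-2.50, SE 0.49). The median of the list was -0.61, against 0.09 over all tested genes. None of the 18 was called for defactinib in IRF5 KO cells. LPS called 5 of the 18 in WT (3 higher, led by Jdp2 at 2.59 and Mafk at 1.81, and 2 lower, among them Cebpb at -1.18) and 1 in IRF5 KO cells (Maf, -1.26). Without IRF5 KO LPS DMSO replicate 3 the latter were 4 (1 higher and 3 lower, Maf at -2.44). In that fit LPS in IRF5 KO called 9.64% of all genes higher and 16.6% lower, so 3 of 18 lower was near the share of all genes. Defactinib in IRF5 KO called 1.45% of all genes there. Later list counts without replicate 3 are read against these shares.

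Of 20 MAP kinases and their activators upstream of AP-1, all tested, LPS raised 5 and lowered 2 in WT cells, and defactinib raised 1 and lowered 4. The largest LPS rise was that of Map3k8 (3.40, SE 0.15), which encodes the kinase TPL2 that activates the ERK pathway, followed by Mapkapk2 (1.41, SE 0.09). Map3k8 was at 100.3, 109.0 and 101.6 CPM in WT LPS DMSO and at 12, 7.80 and 10.2 CPM in WT LPS defactinib libraries, near the 9.94, 9.12 and 10.4 CPM of WT unstimulated cells. Defactinib lowered it by -3.37 (SE 0.15), followed by Map3k5 (-1.68, SE 0.20), and raised Map2k6 (1.82, SE 0.46). In IRF5 KO cells LPS raised Map3k8 by 1.86 (SE 0.14), and defactinib called only Map3k14 of this list (-2.29, SE 0.58). Without replicate 3 of the DMSO group the LPS rise of Map3k8 was 1.98, and defactinib called none of the 20, with Map3k14 at -0.67 (adjusted p = 0.115). The medians of this list were near 0 in all 4 of these comparisons, between -0.11 and 0.12.

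Of 12 factors that act on the Fos promoter, all tested, such as the serum response factor and its ternary complex partners, defactinib lowered 4 in WT cells and raised none, with Ets2 at -2.31 (SE 0.14) and Ets1 at -1.90 (SE 0.35) the lowest. The median of the 12 was -0.83. None of them was called for defactinib in IRF5 KO cells. LPS raised Ets2 in both genotypes, by 1.35 (SE 0.14) in WT and 1.06 (SE 0.14) in IRF5 KO. When replicate 3 was left out, defactinib called Ets1 in IRF5 KO cells (1.14, SE 0.23), and LPS called Ets1 there as lower (-1.08, SE 0.23).

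Of 18 textbook AP-1 target genes, 16 were tested. LPS raised 8 and lowered 3 of them in WT cells, with Il6 (12.74, SE 1.49) and Ptgs2 (9.35, SE 0.69) highest and Plau (-2.35, SE 0.49) and Ccnd1 (-1.82, SE 0.10) lowest. In WT, defactinib raised none and lowered 7, with Il6 (-7.31, SE 1.13) lowest. Il6, an inflammatory cytokine, was at 1095, 950.2 and 833 CPM in WT LPS DMSO and at 3.84, 0.674 and 13.6 CPM in WT LPS defactinib libraries. Its IRF5 KO levels were 28.3, 27.9 and 382 CPM with DMSO, where replicate 3 was the high one, and at 104, 92.8 and 102 CPM with defactinib. In IRF5 KO cells LPS raised 5 of the 16, led by Ptgs2 (8.58, SE 0.66) and Il6 (8.11, SE 1.23), and lowered Plau (-1.75, SE 0.48). With replicate 3 left out, 6 rose and 1 fell, and Il6, at 28.3 and 27.9 CPM in the remaining libraries, rose by 5.74 (SE 0.82), Ptgs2 by 8.49 (SE 0.77). The libraries with the highest Fos, Fosb and Jun were not those with the highest Il6. None of the 16 was called for defactinib in IRF5 KO cells.

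Other immediate-early genes (16, all tested) were raised by LPS in 10 cases and lowered in 1 in IRF5 KO cells, and raised in 4 and lowered in 2 in WT cells. The largest of the 10 rises were Egr1 (6.24, SE 1.06), a zinc finger factor, and Dusp2 (3.56, SE 0.29), a phosphatase of MAP kinases, and Myc (-1.42, SE 0.35) fell. Leaving replicate 3 out gave 10 higher and 2 lower, with Egr1 at 6.82 (SE 0.23) and Myc at -2.31 (SE 0.13). In WT the largest LPS rises were Dusp2 (3.72, SE 0.28) and Nr4a3 (3.03, SE 0.37), and Myc (-4.40, SE 0.41) and Egr2 (-3.19, SE 0.17) fell. In WT, defactinib raised 5, with Egr1 (5.13, SE 1.01) and Ier2 (2.76, SE 0.57) highest, and lowered 4, with Nr4a3 (-3.88, SE 0.39) and Dusp2 (-1.79, SE 0.25) lowest. AU-rich mRNA decay shortens the life of transcripts such as Fos. Of 8 of its regulators, defactinib raised Zfp36 (2.08, SE 0.46) and lowered Zfp36l2 (-1.75, SE 0.27) and Cnot1 (-1.32, SE 0.28) in WT cells. LPS raised Zfp36 in IRF5 KO cells (2.61, SE 0.47) and lowered Zfp36l2 in both genotypes (-1.97, SE 0.27, in WT and -1.48, SE 0.26, in IRF5 KO). In IRF5 KO cells without replicate 3 these values were 3.10 for Zfp36 and -2.06 for Zfp36l2.

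Across the 18 libraries the log2 levels of the 10 genes ran in groups. Among 45 pairs, 7 had a Pearson r above 0.8 and 5 below -0.8. The libraries of a group share their condition, so these values describe the 18 points and carry no p. By Pearson's r, Fosb and Jun were the most alike (0.95), followed by Fos with Fosb (0.92) and Fos with Jun (0.92). By Spearman's rho these 3 pairs were at 0.70, 0.64 and 0.76, below Atf3 with Maff (0.90), Fosl1 with Jund (0.88), Fosb with Junb (0.85) and Junb with Maff (0.84), so the order of the pairs depends on the measure. Junb was like Maff (0.85) and Fosb (0.84), and Atf3 was like Maff (0.81). Fosl1 was like Jund (0.88). Fos ran opposite to Jund (-0.89), Fosl1 (-0.86) and Batf (-0.81), and was unrelated in level to Maff (0.16). Leaving out IRF5 KO LPS DMSO replicate 3 moved Fosb with Jun to 0.94 and Fos with Jund to -0.90.

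**Figure D5:**
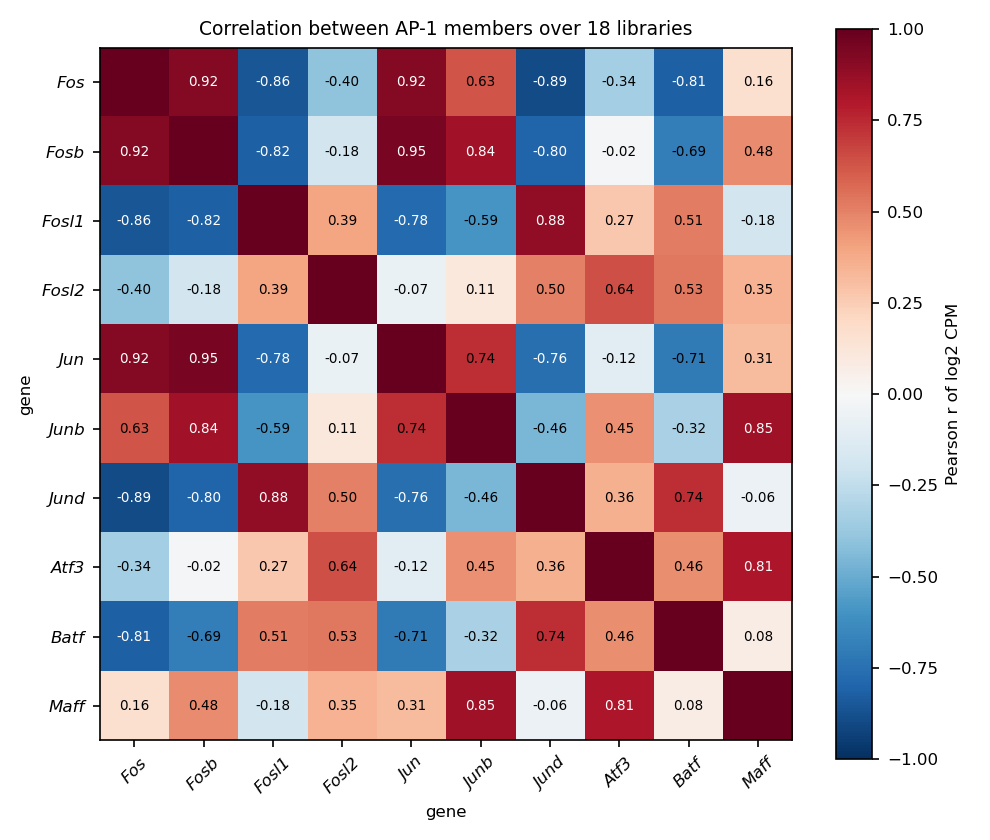
Pearson r of log2 CPM (colour and numbers) between the 10 AP-1 genes over 18 libraries. Fos, Fosb and Jun are at 0.92 to 0.95 with each other, Junb is like both Maff (0.85) and Fosb (0.84), and Jund, Fosl1 and Batf run opposite to Fos.

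Among all tested genes with a symbol, the 3 most like each member were found by the same r. For Fos they were Snord118, Fasl and Tmem230 (0.99, 0.99 and 0.98), for Fosb Tlcd2, Ier5 and Hsp90ab1 (each 0.98), and for Jun Nsun2, P4hb and Ccno (0.99, 0.99 and 0.98). For Junb they were Pim1, Csrnp1 and Yrdc (each 0.97), for Atf3 Ythdf1, Iffo2 and Ankrd50 (each 0.98), and for Maff Cx3cl1, Clcf1 and Gna13 (0.96, 0.96 and 0.95). Those of Fosl1 were Shc1, Rgs16 and 9130023H24Rik (0.97, 0.96 and 0.95) and those of Fosl2 Trmt10c, Ythdf3 and Thumpd1 (0.97, 0.96 and 0.96). Jund was most like Ubtd1, Ppp1r13l and Rusc2 (0.97, 0.96 and 0.95), and Batf most like Gpr84, Zfp263 and Cdc42ep2 (0.94, 0.93 and 0.92).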

How the data were processed

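RNA-seq of 18 libraries in 6 groups of 3 was used, with groups from the labels. The authors deposited a table of raw counts, made with STAR on mm10 and with featureCounts 1.6.3, which assigned each uniquely placed pair to the exons of an Ensembl gene (reverse stranded). No per-library column was left unmapped. CPM were computed here from TMM-scaled library sizes (1 pair is 0.0156 to 0.0266 CPM). Comparisons used edgeR 4.0.16 in R 4.3.3: filterByExpr, TMM, a robust quasi-likelihood fit in which every group has its own mean, and two-sided F tests, with Benjamini-Hochberg adjustment over 15663 genes. Calls needed an adjusted p under 0.05 and a fold change above 2. The SE is the log2 fold change divided by the square root of F, and levels used a prior count of 2 on the log2 scale for correlations. The pipeline was tested on simulated counts. Values are per library, and the library totals in the text set the counting precision. The p-values rest on 1 estimate of the spread that all 6 groups of 3 libraries share, so a library can change tests outside its group. For Jun under defactinib in WT, edgeR's adjusted p was 0.00125 with IRF5 KO LPS DMSO replicate 3 and 5.31e-08 without it.

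The genes named are all 10 members, the 3 genes most like each and, of each list, up to 2 called genes that rose most and up to 2 that fell most in a described comparison, and Irf5. The members, gene lists and tests were chosen with earlier results of these data known. The lists were other bZIP factors, MAP kinases, factors of the Fos promoter, AP-1 targets, immediate-early genes, AU-rich decay regulators and cell type markers. Promoters came from RefSeq (GRCm38.p6). Alternatives were DESeq2 1.42.0 and its size factors, library size alone, 2 other filters, a fit of only the groups compared, the replicate number as a block, no fold change threshold and leaving out each library. Some genes that this rule names are not reported here. The gene lists without IRF5 KO LPS DMSO replicate 3 were an alternative chosen after seeing the data.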

Additional observations from a re-analysis of the deposited data

Results flagged for a closer look

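The effects of LPS and of defactinib were compared between the genotypes by a test of the difference itself (IRF5 KO minus WT, edgeR), and 8 such differences among the AP-1 genes passed it. For LPS they were Fos (2.82, adjusted p = 0.0372), Fosb (4.36, adjusted p = 0.0231) and Jun (3.02, adjusted p = 0.0130): 2 of 3 IRF5 KO LPS DMSO libraries were above every unstimulated IRF5 KO library in each gene, and WT LPS DMSO libraries were above every WT unstimulated library in 0 of 3 cases for Jun, 1 of 3 for Fos and 2 of 3 for Fosb. For defactinib they were Fos (-3.64, adjusted p = 0.00404), Fosl2 (1.78, adjusted p = 2.3e-05), Jund (1.29, adjusted p = 0.0330), Atf3 (2.39, adjusted p = 4.02e-07) and Maff (2.11, adjusted p = 1.7e-06). Fosl2, Atf3 and Maff fell with defactinib in 3 of 3 WT libraries and were higher with it in 3 of 3 IRF5 KO libraries than in any IRF5 KO LPS DMSO library. The Fos call for LPS was lost with no filter, with the replicate block and when only the groups compared were fitted (adjusted p = 0.101, 0.0589 and 0.0733), and when any 1 of 11 libraries was left out. That of Fosb was lost with no filter (adjusted p = 0.0643) and when any 1 of 6 libraries was left out. The call of Jund was lost with library size alone, with no filter and when only the groups compared were fitted (adjusted p = 0.131, 0.0883 and 0.0872), and when any 1 of 8 libraries was left out (0.96 to 1.29, adjusted p up to 0.113). The shares of Gm26917 in the counts differ between the same libraries, and their part in these differences was not tested.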

How the results depend on the processing

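For the 10 genes in 11 comparisons, 835 values under other settings kept their direction and their side of the threshold, 18 lost the call, 25 gained it and 2 reversed. With 1 library left out, 1909 kept both, 38 lost the call, 19 gained it and 14 reversed. The counts of called genes among the 10 moved as follows. Where no share of all genes stands beside a count, it is not read as a result about the family, since that share can move too. For LPS in WT there was 1 with library size alone and 5 with no fold change threshold, with 2 to 4 when a library was left out. When only the groups compared were fitted there was 1 for LPS in IRF5 KO (Maff, with 1.08% of all genes called) and for the genotypes after LPS there were 2 (Fos and Jun, with 19.5% of all genes). For defactinib in IRF5 KO there was 1 with DESeq2 and 2 with no fold change threshold, with 0 to 1 when a library was left out. For the genotypes before LPS there were 2 with no fold change threshold. The genotype difference of the LPS effect had 1 call with no filter and 1 to 5 with a library left out, and that of the defactinib effect 4 to 9. Values that reversed were Fosl1 between genotypes after LPS with defactinib (0.016 with no filter, -0.36 to 0.53 with a library left out), Batf for defactinib in IRF5 KO (0.093 with the replicate block, -0.27 to 0.65), Fos for LPS in WT (-0.18 to 0.063) and for defactinib in IRF5 KO (-0.35 to 0.58), Jund for defactinib in IRF5 KO (-0.42 to 0.42) and for the genotype difference of the LPS effect (-0.75 to 0.027), Fosl1 for the latter (-0.25 to 1.00) and Fosl2 between genotypes after LPS (-0.010 to 0.24). Library size alone moved the median of all genes to -0.38 for LPS in WT and to 0.29 for defactinib in WT, where it called 7 of the 10 genes, 3 higher and 4 lower. The shares of all genes called higher and lower under that scaling are not given here. The cause was not tested.

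Replicate numbers were not taken as pairs: libraries of 1 number in different groups deviated together with a median r of 0.005 over 45 pairs (-0.10 to 0.28), above 0.1 in 4. With the replicate block, the LPS difference between genotypes called 2 of the 10 genes and the defactinib difference 6, and the counts in the other comparisons were those of the fit without it. The shares of all genes called with the block are not given here, so these counts are not read as a result about the family. At 3 libraries per group and these depths, the SE of a log2 fold change ran from 0.14 to 1.20, widest for the low gene Fosb.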
